A study of Mus musculus with 3 samples.

Results

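The genes described here are 10 interferon inducible GTPases, which were chosen by gene symbol. They are the 4 guanylate binding proteins Gbp2, Gbp3, Gbp5 and Gbp7 and the 6 immunity related GTPases Irgm1, Irgm2, Igtp, Iigp1, Ifi47 and Tgtp2. All 10 were found among the 54532 genes of the deposited tables, each in 1 row, and all 10 had an FPKM (fragments per kilobase of gene, scaled to library size) of at least 1 in every library. RNA was sequenced from 3 mouse libraries, 1 per condition. MICFs, the fibroblasts of the infarcted heart, came from Myh6-mCherry mice, whose mCherry reporter is driven by the Myh6 promoter of cardiomyocytes. The coronary artery was ligated at 8 weeks of age, the infarct was taken 5 days later, and the library of MICFs was made from cells kept without virus for 4 weeks. The iCMs, or induced cardiomyocytes, came from MICFs that received lentiviral vectors under doxycycline control (1 μg/ml in the iCM medium) for Gata4, Mef2c, Tbx5 and Myocd, with Sall4 in GMTMS and with Mesp1 in GMTMM. They were sorted for mCherry after the same 4 weeks, and 5 sorted samples were mixed per cocktail before RNA extraction. Whether the MICFs kept without virus received doxycycline is not given in the sources used here. Virus, doxycycline, sorting and the factors themselves cannot be told apart in any comparison with MICFs, and with 1 library per condition no difference has a replicate check.

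Guanylate binding proteins and immunity related GTPases are among the genes that cells switch on most strongly when interferon binds its receptors. Both families bind guanine nucleotides, insert into or coat membranes, and are best known for attacking the vacuoles and the surfaces of microbes that live inside cells. Among the immunity related GTPases, Irgm1, Irgm2 and Igtp are regulators that sit on the cell's own membranes and hold the others inactive there, whereas Iigp1, Ifi47 and Tgtp2 are effectors that load onto the microbial vacuole. Interferon reaches these genes through the kinases Jak1, Jak2 and Tyk2 and through transcription factors that include Stat2, Irf9 and Irf1, the last of which is itself an interferon target. Promoters of interferon targets often hold short sites called GAS and ISRE, and Irf1 can bind the latter.

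Library totals were 11861773 counts (MICFs), 10624118 (GMTMS-iCMs) and 11904484 (the library whose label is GMTMM, called the GMTMM-labelled library below). That name is used because Sall4, which the GMTMM cocktail lacks, had 1060 counts there and Mesp1 had 0. Markers of the labelled cell types were present. On the log2 scale defined below, 8 of 8 cardiomyocyte markers were higher by over 1 in each transduced library than in MICFs, where 5 of the 8 were at 0. The shares over all genes tested were 12.1% in GMTMS-iCMs and 8.31% in the GMTMM-labelled library. The summed FPKM of the cardiomyocyte markers was 1.28 (MICFs), 1318 (GMTMS-iCMs) and 494 (GMTMM-labelled library). Markers of other cell types were present in all 3 libraries. The FPKM of 10 macrophage markers summed to 7587 (MICFs), 15816 (GMTMS-iCMs) and 7289.6 (GMTMM-labelled library), with no marker at 0. For 8 endothelial markers the sums were 486, 14.5 and 379.9, and for 9 fibroblast markers they were 1856, 513 and 3472, in the same order, again with none at 0. In such mixed RNA a change in the number of cells of a type and a change in RNA per cell cannot be told apart.

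All differences below are on a log2 scale, log2 (FPKM + 1) after quantile normalization of the deposited FPKM over the 3 libraries, and a gene was called where it differed by more than 1 in either direction. A fold is the ratio of 2 deposited FPKM values, and its 95% interval was worked out by the Clopper-Pearson method from the read numbers. Where a change is small, a difference and a fold can point in opposite directions. These intervals cover counting error only, and they say nothing of the spread between cultures.

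In GMTMS-iCMs all 10 GTPases exceeded their level in MICFs by over 1. The median difference was 2.54, from 1.86 for Gbp7 to 4.84 for Gbp5. Of the 13919 genes that reached an FPKM of 1 in any library, 12.1% were higher by over 1 in this comparison and 10.7% were lower, with a median difference of -0.04. In the GMTMM-labelled library 9 of the 10 exceeded MICFs by over 1 and none was lower, with a median difference of 2.37. There 8.31% of the genes were higher and 5.09% were lower, with a median of -0.08. Gbp7 was the exception, with a difference of 0.86, and it passed the limit of 1 when the counts were scaled with DESeq2's size factors (1.04) or with TMM (1.01). When the counts were scaled by library totals alone, 8.30% of all genes lay above and 22.3% below MICFs by over 1 in GMTMS-iCMs, against 7.44% and 11.1% in the GMTMM-labelled library, and the numbers of GTPases stayed at 10 and 9. Both comparisons share the MICF library. The summed FPKM of the 10 genes was 81.1 (MICFs), 708 (GMTMS-iCMs) and 709 (GMTMM-labelled library), and their share of all counts was 0.0343%, 0.228% and 0.237%.

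**Figure D1:**
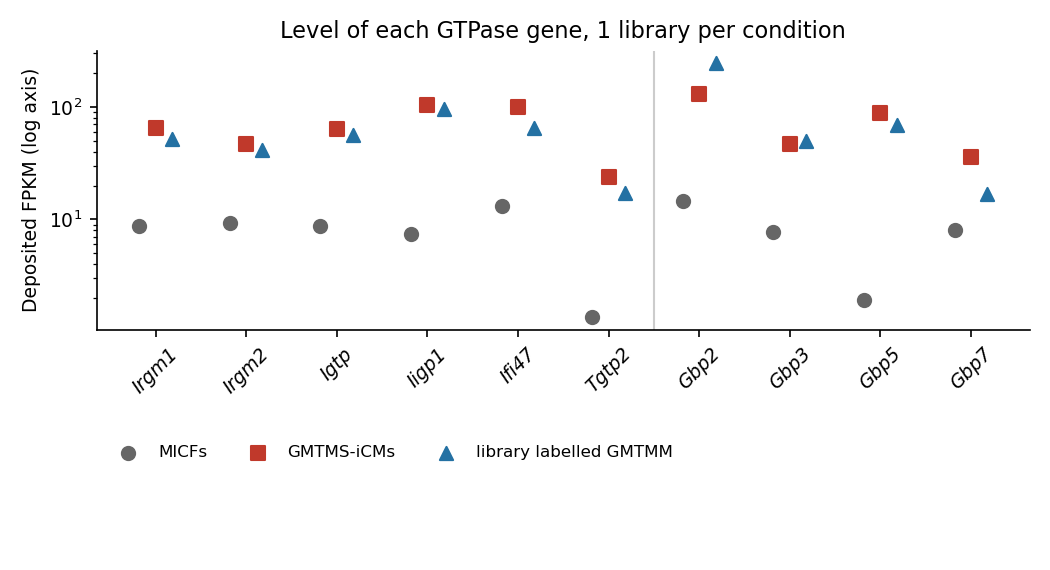
Deposited FPKM of each GTPase gene on a log axis, with 1 point per library; immunity related GTPases are left of the grey line and guanylate binding proteins right of it. For each of the 10 genes the MICF point lies lowest, and Gbp2 in the GMTMM-labelled library is the highest of all points, at 245.

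The sequences in front of the start sites of the GTPase genes are shown next. The genes were chosen as interferon inducible, and promoters of such genes often hold GAS and ISRE sites. Matches were therefore likely beforehand, and their part in the differences from MICFs was not tested. Promoter windows of RefSeq on GRCm38.p6, from 250 bases before to 50 after the start site, were used for 9 of the 10 genes. No window of Iigp1 was searched, so whether it holds a match is not known here. The windows were searched on both strands for GAS, written TTCNNNGAA, and for ISRE, written as GAAA, any 2 bases and GAAA. An ISRE match was found for 8 of the 9 genes, against 3.99% of the 27025 genes with such a window. A GAS match was found for 5 of the 9 genes, against 9.55% of all genes, and those 5 also had an ISRE match. None of the 10 large GTPases of other families (dynamins, atlastins, mitofusins and Opa1) had either match. Windows of 7 other guanylate binding and immunity related GTPase genes were searched, and the rest of that list was not. Of these 7 genes, 4 had an ISRE match (9930111J21Rik1, Gbp2b, Gm12250 and Tgtp1) and 2 a GAS match (Gm12250 and Tgtp1). Of the 4, 9930111J21Rik1 was not higher than MICFs in either transduced library (-0.02 and -1.16). The stretches around the matches are printed from 5′ to 3′ on the strand of the gene and end before the start site, with GAS and ISRE matches in capitals. An ISRE match on the opposite strand reads TTTC, 2 bases and TTTC. The RefSeq start site lies inside the gene span of the deposited table for Gbp2, Gbp3, Gbp5, Irgm1 and Irgm2, so bases before it can be transcribed from other starts.
Irgm1, chr11:48871421-48871490, minus strand: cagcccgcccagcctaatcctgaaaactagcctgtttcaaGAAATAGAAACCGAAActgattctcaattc
Irgm2, chr11:58214862-58214962, plus strand: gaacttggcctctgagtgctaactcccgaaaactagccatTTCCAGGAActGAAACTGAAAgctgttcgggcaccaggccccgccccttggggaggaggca
Igtp, chr11:58199471-58199555, plus strand: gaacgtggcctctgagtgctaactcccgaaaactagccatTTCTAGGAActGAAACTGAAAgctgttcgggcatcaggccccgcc
Tgtp2, chr11:49064233-49064333, minus strand: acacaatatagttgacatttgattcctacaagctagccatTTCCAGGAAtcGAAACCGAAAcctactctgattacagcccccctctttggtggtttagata
Gbp2, chr3:142620564-142620653, plus strand: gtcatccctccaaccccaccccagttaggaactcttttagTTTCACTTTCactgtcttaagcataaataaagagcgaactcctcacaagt
Gbp3, chr3:142559959-142560043, plus strand: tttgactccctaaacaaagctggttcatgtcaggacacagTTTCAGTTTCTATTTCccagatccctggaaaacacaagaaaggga
Gbp7, chr3:142530190-142530332, plus strand: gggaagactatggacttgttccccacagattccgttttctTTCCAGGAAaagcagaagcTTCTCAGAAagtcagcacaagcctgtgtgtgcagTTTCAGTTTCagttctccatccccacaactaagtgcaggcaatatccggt
Gbp5, chr3:142496684-142496930, plus strand: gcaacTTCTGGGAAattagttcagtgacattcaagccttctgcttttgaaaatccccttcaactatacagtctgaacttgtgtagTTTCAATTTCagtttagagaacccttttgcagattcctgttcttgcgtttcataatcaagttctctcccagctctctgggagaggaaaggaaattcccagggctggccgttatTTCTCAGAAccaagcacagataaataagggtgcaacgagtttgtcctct
In Tgtp2, Igtp and Irgm2 the GAS match (the first run of capitals) was followed by the ISRE match after 2 bases. Igtp and Irgm2 had the same base at 82 of 85 positions compared in these stretches. The 2 ISRE matches of Gbp3, and the 2 of Irgm1, overlap and appear as 1 run. Gbp3 also had a window at a later RefSeq start site, from 142560106 to 142560405, without a match of either kind. A gene was counted as matched if any of its windows held a match. Gbp5 had its matches farthest from each other, with GAS matches beginning at positions -245 and -52 and an ISRE match at -165, counted from the start site at 0. No match was found for Ifi47, which says only that these letters are not in its window. A match describes the letters and does not show that a factor was bound.

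**Figure D2:**
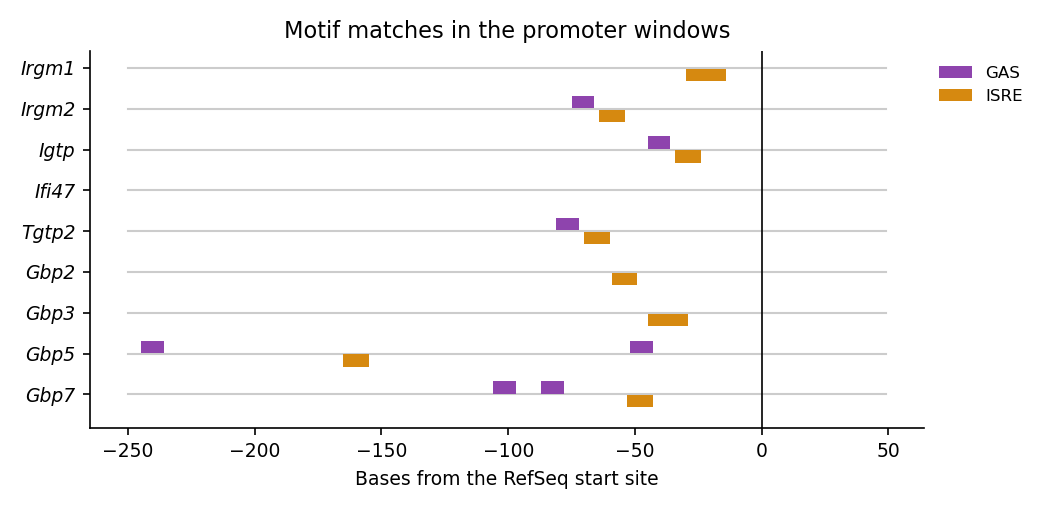
Positions of GAS and ISRE matches in the promoter windows of 9 GTPase genes, in bases from the RefSeq start site (black line at 0). Apart from Gbp5 and Ifi47, each gene has an ISRE match that begins between positions -70 and -24, and Ifi47 has none. A later window of Gbp3, which has no match, is not drawn.

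The regulators were looked at first. Irgm1 (ENSMUSG00000046879, chromosome 11 from 48861968 to 48871683 on GRCm38), which keeps effector GTPases off the cell's own membranes, had an FPKM of 8.71 (MICFs), 65.1 (GMTMS-iCMs) and 52.4 (GMTMM-labelled library). It was 7.48-fold higher in GMTMS-iCMs (6.90 to 8.11) and 6.02-fold higher in the GMTMM-labelled library (5.56 to 6.53). Irgm2 (ENSMUSG00000069874), a second regulator, had 9.30, 46.9 and 41.2 FPKM, which was 5.05-fold (4.56 to 5.59) and 4.42-fold (4.00 to 4.90) above MICFs. Igtp (ENSMUSG00000078853), the third, had 8.80, 63.7 and 56.2 FPKM, or 7.24-fold (6.32 to 8.32) and 6.39-fold (5.58 to 7.33) above MICFs. The 3 regulators lay close to each other in MICFs, and in each transduced library Irgm2 was the lowest of them. Irgm2 (chromosome 11 from 58199618 to 58222782) and Igtp (from 58199556 to 58207591) overlap on the same strand, and 4.39% of the exon bases of Irgm2 and 8.01% of those of Igtp lie in exons of the other, so some of their reads could have been assigned to either gene.

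The effectors spread more widely. Iigp1 (ENSMUSG00000054072, chromosome 18 from 60376029 to 60392627) had 332 counts (MICFs), 3040 (GMTMS-iCMs) and 3512 (GMTMM-labelled library), with an FPKM of 7.39, 105 and 96.3. It was 14.2-fold (12.7 to 15.9) and 13.03-fold (11.6 to 14.6) above MICFs, and by FPKM it took the eighth place among the 10 genes in MICFs and the second in each transduced library. Its FPKM rests on a deposited gene length of 3121 bases, where GENCODE M21 has 5823 exon bases, so its place in that order depends on the annotation. Ifi47 (ENSMUSG00000078920, chromosome 11 from 49076587 to 49096974) had 13.2, 101 and 65.6 FPKM, 7.63-fold (6.91 to 8.45) and 4.96-fold (4.48 to 5.49) above MICFs. All 3 effectors were lowest in MICFs and, by FPKM, highest in GMTMS-iCMs, as the regulators were. For Ifi47, Gm12188 and Olfr56 cover 8.78% of its exon bases with exons of their own. Tgtp2 (ENSMUSG00000078921, chromosome 11 from 49057194 to 49064206) had 57, 646 and 589 counts, and an FPKM of 1.35, 23.7 and 17.2. Its fold was 17.6 (13.4 to 23.4) in GMTMS-iCMs and 12.7 (9.69 to 17.01) in the GMTMM-labelled library. Tgtp2 has a near copy, Tgtp1, which shares 71.7% of the 150-base words of the longest Tgtp2 transcript, so the split of reads between the copies is uncertain. Tgtp1 itself had 19, 165 and 200 counts, and was 13.5-fold (8.35 to 22.9) and 12.97-fold (8.09 to 22.0) above MICFs.

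The guanylate binding proteins held both the largest and the smallest folds of the 10 genes. Gbp5 (ENSMUSG00000105504, chromosome 3 from 142493978 to 142522344), known for promoting inflammasome assembly, had 183 counts (MICFs), 5505 (GMTMS-iCMs) and 5317 (GMTMM-labelled library). Its FPKM was 1.92, 89.3 and 68.6, a fold of 46.6 (40.2 to 54.3) and of 35.8 (30.9 to 41.7). Among the 13919 genes its difference from MICFs was the 27th largest in GMTMS-iCMs and the 29th largest in the GMTMM-labelled library. Gbp2 (ENSMUSG00000028270, chromosome 3 from 142620602 to 142638008), a lipid-anchored member that gathers on vacuoles of parasites, was the most abundant of the 10 genes in every library, with an FPKM of 14.6, 130.5 and 245. It was 8.96-fold (8.17 to 9.85) higher in GMTMS-iCMs and 16.8-fold (15.4 to 18.4) higher in the GMTMM-labelled library, where it made up 34.5% of the summed FPKM of the 10 genes, against 17.9% in MICFs and 18.4% in GMTMS-iCMs.

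Gbp3 (ENSMUSG00000028268, chromosome 3 from 142560026 to 142573209) had 7.75, 46.5 and 49.9 FPKM, 6.001-fold (5.34 to 6.75) and 6.44-fold (5.75 to 7.22) above MICFs. Gbp7 (ENSMUSG00000040253, chromosome 3 from 142530342 to 142550149), which has been tied to the oxidative burst, had an FPKM of 8.12 (MICFs), 36.04 (GMTMS-iCMs) and 16.8 (GMTMM-labelled library). It was 4.44-fold (4.06 to 4.86) higher in GMTMS-iCMs and 2.06-fold (1.87 to 2.28) higher in the GMTMM-labelled library, the smallest fold of the 10 in both. Exons of Gm43802 cover 11.3% of its exon bases. The neighbours Gbp3 and Gbp7 were close in MICFs, and Gbp3 lay above Gbp7 in each transduced library.

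**Figure D3:**
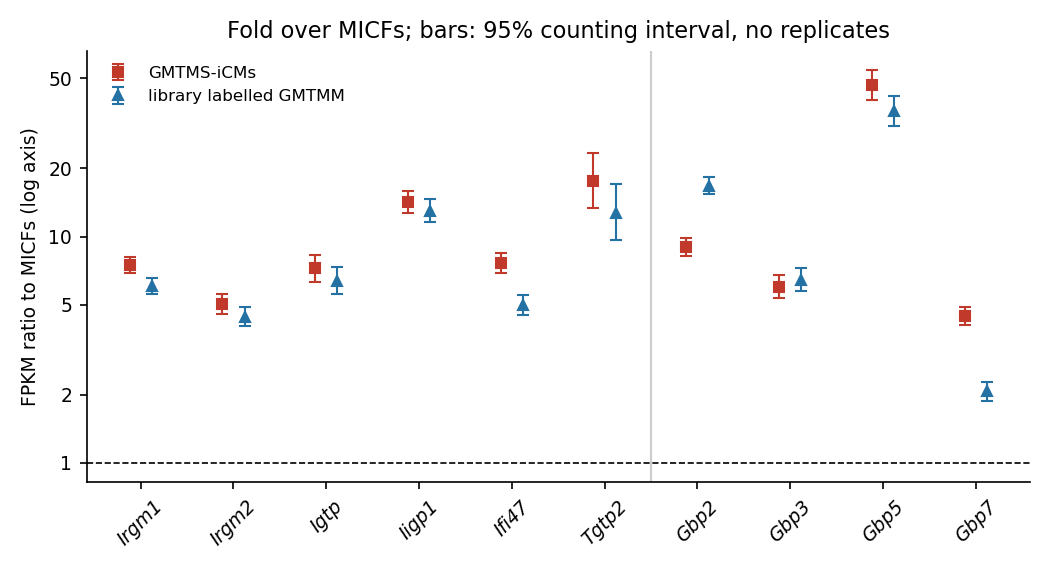
Ratio of FPKM to MICFs on a log axis for each GTPase gene in GMTMS-iCMs (squares) and the GMTMM-labelled library (triangles); bars are 95% counting intervals and do not cover differences between cultures. All intervals lie above 1 (dashed line), from 2.06-fold for Gbp7 to 46.6-fold for Gbp5.

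Between the transduced libraries the 10 GTPases differed by at most 1.54-fold, apart from Gbp2 and Gbp7. The median difference of GMTMS-iCMs from the GMTMM-labelled library was 0.22, against 0.10 over all genes tested, and 1 of the 10 was higher by over 1 and none lower, where 9.01% of the genes were higher and 11.1% lower (5.96% and 14.9% by library totals). Gbp7 was 2.15-fold higher in GMTMS-iCMs (1.99 to 2.32), with a difference of 1.00 that lay at the limit. Gbp2 went the other way and was 1.88-fold higher in the GMTMM-labelled library (1.80 to 1.96), with a difference of -0.99 for GMTMS-iCMs, just inside the limit. Ifi47 was 1.54-fold (1.45 to 1.64), Tgtp2 1.38-fold (1.23 to 1.54), Gbp5 1.30-fold (1.25 to 1.35) and Irgm1 1.24-fold (1.19 to 1.30) higher in GMTMS-iCMs. Irgm2, Igtp, Iigp1 and Gbp3 lay between 0.932-fold and 1.14-fold. By FPKM 8 of the 10 genes were higher in GMTMS-iCMs and by library totals 7 of the 10 were, since Iigp1 changed sides (1.09-fold and 0.970-fold).

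Markers of T cells and NK cells, which make interferon gamma, also differed between these libraries. Of 10 such markers 7 were higher by over 1 in the GMTMM-labelled library than in MICFs, and 1 was in GMTMS-iCMs. The shares over all genes tested were 8.31% and 12.1%. The FPKM of the 10 markers summed to 5.47 (MICFs), 14.8 (GMTMS-iCMs) and 25.2 (GMTMM-labelled library). Most of the sum in GMTMS-iCMs was Cd4 (13.6), which macrophages can also carry, whereas Cd8a had 1, 1 and 63 counts, Gzmb 11, 10 and 126 and Nkg7 4, 1 and 62 in the order MICFs, GMTMS-iCMs and GMTMM-labelled library. Cd3d was at 0 in GMTMS-iCMs and Ncr1 at 0 in both transduced libraries. Ifng, the gene of interferon gamma, had 12 counts in the GMTMM-labelled library and 0 in the others, where a count of 0 allows up to 3. Their part in the level of Gbp2 or of any other GTPase was not tested.

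The ligands, receptors and signal carriers of interferon were not all higher. Ifnb1, the gene of interferon beta, had 0 counts (MICFs), 215 (GMTMS-iCMs) and 142 (GMTMM-labelled library), which was at least 111-fold and at least 58.3-fold higher (3 counts taken as the floor in MICFs). Of 13 genes of the type I interferon pathway 5 were higher by over 1 in GMTMS-iCMs (Ifnb1, Irf7, Stat2, Usp18 and, at 1.01, Irf9) and 4 in the GMTMM-labelled library (Ifnb1, Irf7, Stat2 and Usp18), and none was lower. Only 9 of the 13 reached an FPKM of 1 in any library. Ifnk and Ifne had 0 counts in every library and Ifna2 and Ifna4 at most 4, too few to be read as unchanged. The shares higher over all genes tested were 12.1% in GMTMS-iCMs and 8.31% in the GMTMM-labelled library. The receptor genes Ifnar1 and Ifnar2 differed from MICFs by -0.31 to 0.10. Their folds over MICFs were 1.22 and 1.03 for Ifnar1 and 1.28 and 1.46 for Ifnar2, in GMTMS-iCMs and the GMTMM-labelled library. Of 11 genes of the interferon gamma pathway 4 were higher by over 1 in GMTMS-iCMs (Irf1, Jak2, Socs1 and Nlrc5) and 3 in the GMTMM-labelled library (Irf1, Jak2 and Socs1), with none lower. Irf1, an activator of many GTPase genes, was 14.3-fold (13.2 to 15.5) and 14.6-fold (13.5 to 15.8) above MICFs. Socs1, a feedback inhibitor of the Jak kinases, was 13.8-fold (9.58 to 20.4) and 25.6-fold (18.1 to 37.6) above. The receptor genes Ifngr1 and Ifngr2 differed from MICFs by -0.76 to 0.07.

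The other members of the families were not all higher. Of 18 further guanylate binding and immunity related GTPase genes, 9 were higher by over 1 in GMTMS-iCMs and none lower, with a median difference of 0.96. In the GMTMM-labelled library 7 were higher and 2 lower, with a median of 0.31. Of all genes tested 12.1% were higher and 10.7% lower in GMTMS-iCMs, and 8.31% and 5.09% in the GMTMM-labelled library. Gbp6 was 18.005-fold (14.2 to 23.2) and 15.4-fold (12.1 to 19.8) above MICFs, and Gbp4 was 4.69-fold (4.15 to 5.32) and 4.31-fold (3.82 to 4.88) above. Gbp8 and Gbp9, also on chromosome 5, had differences of 0.66 and 0.86 in GMTMS-iCMs and of -0.44 and 0.25 in the GMTMM-labelled library. Gbp4 (from 105115767 to 105139586), Gbp8 (from 105014150 to 105139540) and Gbp9 (from 105077630 to 105139539) overlap on the minus strand. Some of their reads could have been assigned to any of them, and the overlap of their exons was not measured. Gm12250, which the deposited table lists as a pseudogene and which is known to encode the effector Irgb10, had 65, 604 and 452 counts, 14.4-fold (11.1 to 18.9) and 8.57-fold (6.59 to 11.3) above MICFs. Gm5431 was 5.00-fold higher (4.30 to 5.84) in GMTMS-iCMs and 1.15-fold (0.951 to 1.40) in the GMTMM-labelled library. Past 1 in both transduced libraries were also Tgtp1 (2.26 in GMTMS-iCMs and 2.14 in the GMTMM-labelled library), Gbp10 (1.19 and 1.35) and Gm4841 (1.47 and 1.56). Gbp2b (1.05) and F830016B08Rik (1.17) were past it in GMTMS-iCMs, and Gbp11 (1.68) in the GMTMM-labelled library. The genes lower by over 1 in the GMTMM-labelled library were 9930111J21Rik1 (-1.16) and 9930111J21Rik2 (-1.32).

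Large GTPases of other families were read for comparison. Of 10 genes for dynamins, atlastins, mitofusins and Opa1, which remodel the cell's membranes, 1 was higher by over 1 in GMTMS-iCMs (Atl2, 1.26) and none in the GMTMM-labelled library, with a median difference of -0.18 in each. These counts lie near the shares over all genes tested, 12.1% and 8.31%, and 8 of the 10 reached an FPKM of 1 in any library. The interferon inducible Mx1 and Mx2, antiviral GTPases of the dynamin superfamily, differed from MICFs by 5.89 and 4.81 in GMTMS-iCMs and by 4.49 and 4.16 in the GMTMM-labelled library. Mx2 is listed as a polymorphic pseudogene in the deposited annotation, so its RNA level does not show that an intact protein is made.

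**Figure D4:**
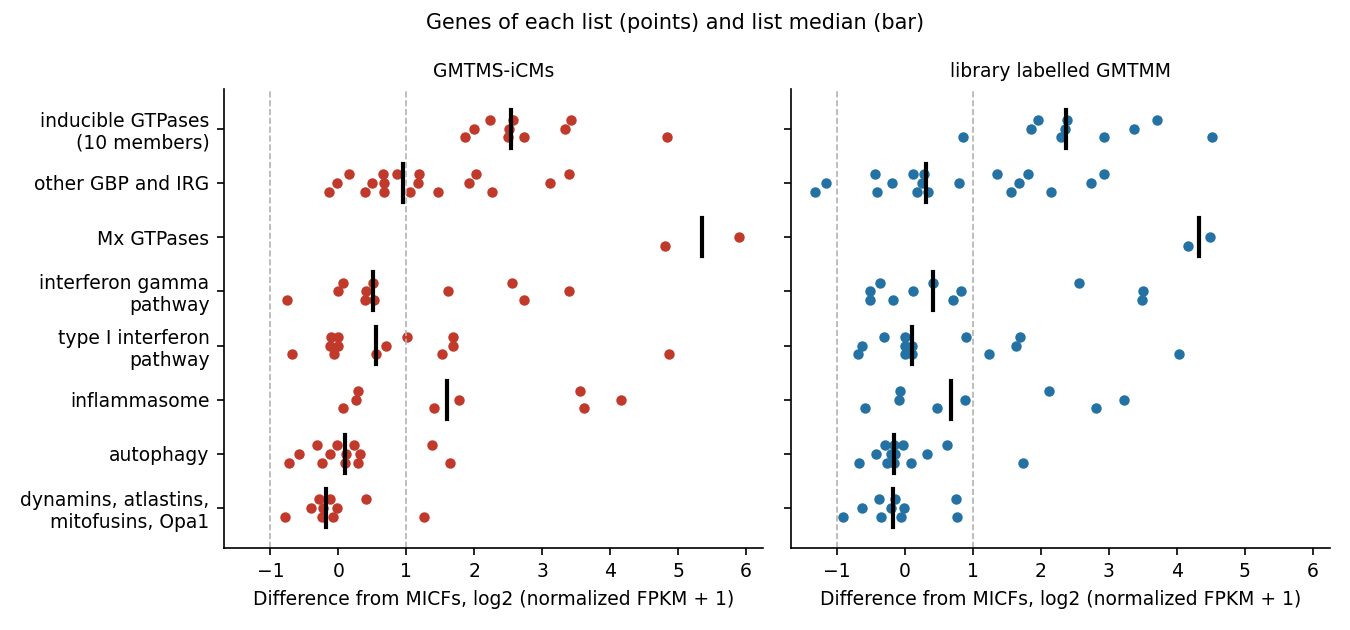
Difference from MICFs (log2 of normalized FPKM + 1) for the genes of 8 lists, in GMTMS-iCMs (left) and the GMTMM-labelled library (right); each point is a gene, black bars are list medians and dashed lines mark a difference of 1 either way. The 10 GTPases lie from 1.86 to 4.84 on the left and from 0.86 to 4.52 on the right, and the dynamins and their relatives have medians of -0.18.

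Genes that work beside the GTPases were also read. Over all genes tested, 12.1% were higher by over 1 in GMTMS-iCMs and 8.31% in the GMTMM-labelled library. Of 8 inflammasome genes, 5 were higher by over 1 in GMTMS-iCMs (Il1b, Casp4, Nlrp3, Casp1 and Il18) and 3 in the GMTMM-labelled library (Casp4, Il1b and Nlrp3), with medians of 1.59 and 0.68. Casp4, which senses bacterial lipopolysaccharide with the help of guanylate binding proteins, was 16.2-fold (14.4 to 18.4) and 11.9-fold (10.5 to 13.5) above MICFs, whereas Aim2 differed by 0.06 and -0.58. Among 13 autophagy genes, whose conjugation machinery guides the GTPases to vacuoles, 2 were higher by over 1 in GMTMS-iCMs (Sqstm1 and Traf6) and 1 in the GMTMM-labelled library (Sqstm1). These autophagy counts lie near the shares over all genes. Sqstm1, the autophagy receptor p62, was 5.55-fold (5.40 to 5.70) and 4.80-fold (4.68 to 4.94) above MICFs, and Atg3, Atg5, Atg7 and Atg16l1 differed by -0.67 to 0.31. Of 5 genes for the enzymes that add and process lipid anchors none was higher by over 1. Pggt1b was lower in the GMTMM-labelled library (-1.07), where 5.09% of all genes tested were lower by over 1.

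Marker genes of the cell types present are given beside these values. For reference, 12.1% of all genes tested were higher and 10.7% lower by over 1 in GMTMS-iCMs, and 8.31% and 5.09% in the GMTMM-labelled library. In GMTMS-iCMs 3 of the 10 macrophage markers exceeded MICFs by over 1 (Cd14, Ptprc and Itgam) and none was lower, with a median difference of 0.46. In the GMTMM-labelled library 1 was higher (Cd14, 2.15) and 3 were lower (Cx3cr1, Csf1r and Mrc1), with a median of -0.67. The 8 endothelial markers were all lower by over 1 in GMTMS-iCMs, with a median of -4.48, and 2 of 8 were in the GMTMM-labelled library. All 9 fibroblast markers were lower by over 1 in GMTMS-iCMs, and in the GMTMM-labelled library none was lower and Postn was higher. The part of these cell types in the GTPase levels was not tested.

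Apart from Iigp1, the 10 GTPase genes lie in 3 blocks, and the other genes of those blocks were read after the GTPase values had been seen. In the Gbp block on chromosome 3 the order is Gbp5, Gbp7, Gbp3, Gbp2b and Gbp2, and within 200 kb of it 4 other genes reached an FPKM of 1 in any library. None of the 4 (Pdlim5, Gtf2b, Pkn2 and Gm25965) differed from MICFs by over 1 in either transduced library, with a range from -0.71 to 0.64. Around Igtp and Irgm2 none of 10 such genes did, with a range from -0.76 to 0.88. Around Irgm1, Tgtp2 and Ifi47 there were 9 such genes, of which Btnl9 was lower (-2.58) and Gm12188 higher (3.17) in GMTMS-iCMs. Gm12188 is a pseudogene that lies within Ifi47 on the opposite strand and overlaps its exons, so without a known strand setting its reads and those of Ifi47 cannot be told apart.

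**Figure D5:**
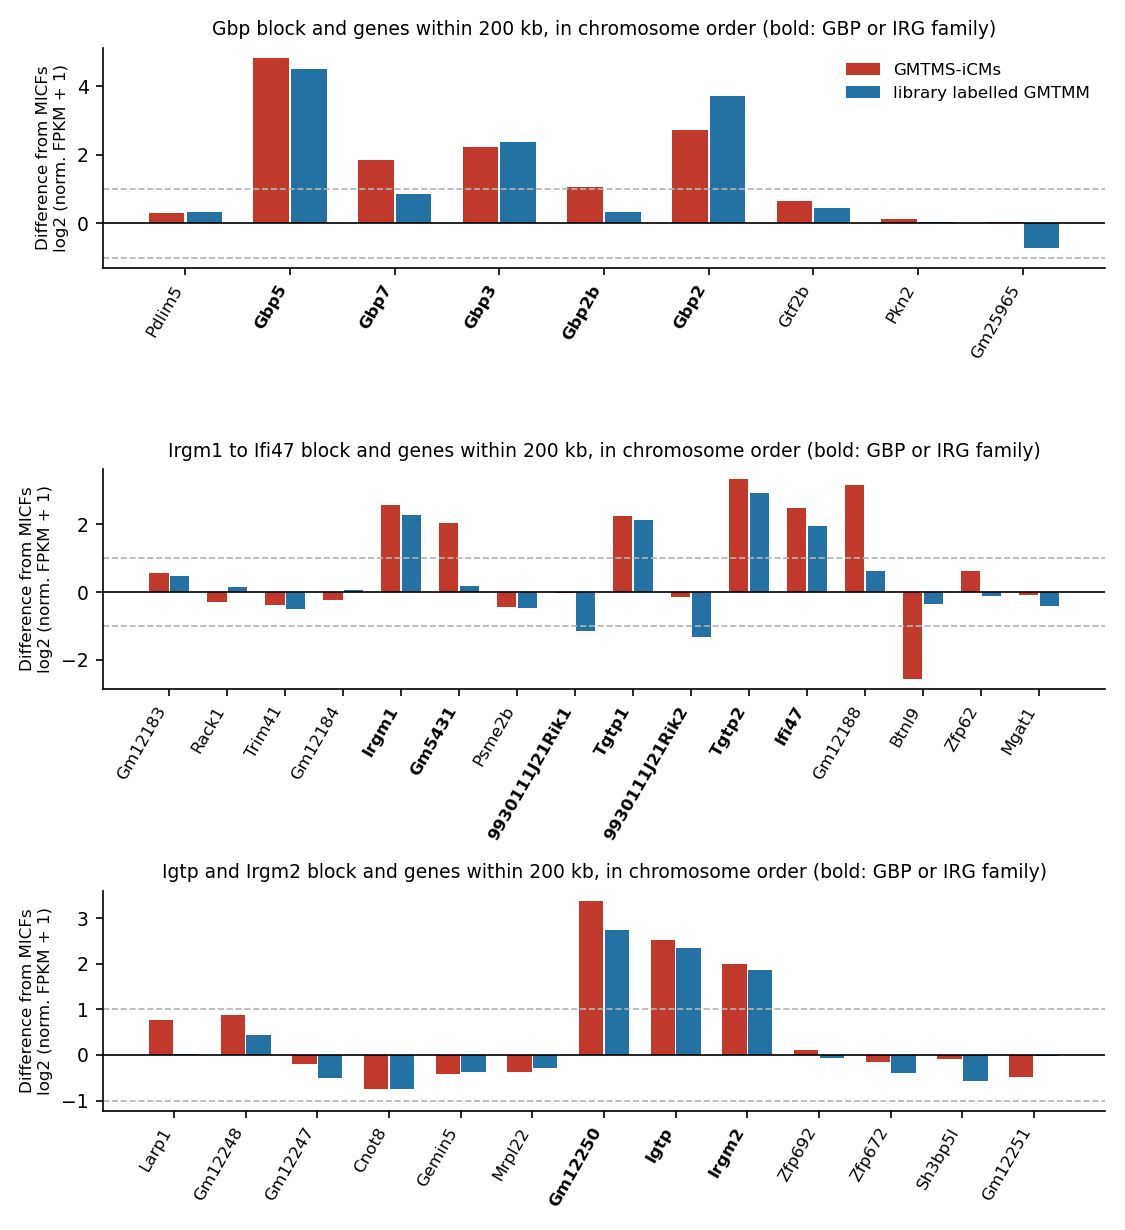
Difference from MICFs (log2 of normalized FPKM + 1) for all genes that reached an FPKM of 1 in any library within 200 kb of the 3 blocks, in chromosome order and not to genomic scale; names in bold are guanylate binding or immunity related GTPases, and dashed lines mark a difference of 1. Among the other genes, Btnl9 and Gm12188 are the 2 whose bars pass a dashed line.

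The genes outside these lists whose pair of differences lay nearest to the median pair of the GTPases (2.54 and 2.37) were Pcna-ps2, Arid5a, Gm24060, Slc16a1 and Pgam2, at Euclidean distances of 0.0176 to 0.0779 over these 2 differences. Arid5a, an RNA-binding protein, had 449, 2348 and 2556 counts, and Slc16a1, a lactate transporter, had 150, 729 and 842. Gm24060 had 0, 4 and 5 counts, so its place rests on few reads. Likeness over 3 libraries is a weak description.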

How the data were processed

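The study sequenced RNA of 3 mouse libraries, each a condition of its own. The authors deposited whole-number counts per gene, without normalization, and FPKM per gene. Reads were paired, of 150 nucleotides. The submitters' processing notes name HISAT2 2.0.5 and mm9, but 98.3% of the gene coordinates in the files equal those of GENCODE M21 on GRCm38, so GRCm38 is given. The counting tool and strand setting are not given in the sources used here. The deposited FPKM had been scaled with library sizes of 14389264 (MICFs), 9287868 (GMTMS) and 11680913 (GMTMM), which equal the library totals' geometric mean multiplied by size factors of DESeq2, not the totals. The MICF column is headed cMF and was matched because the other columns name the cocktails.

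From these files FPKM of all 3 libraries were quantile-normalized (ties took their mean) and transformed as log2 (FPKM + 1), the scale of the study. Counts, which had no replicates, entered no test. Medians and shares over all genes used the 13919 genes that reached an FPKM of 1 in any library. A count of 0 allows up to 3 counts, or 0.253, 0.282 and 0.252 CPM in MICFs, GMTMS and GMTMM. The genes, lists and rules were chosen with earlier results of these data known. The 10 GTPases, those past a difference of 1 in the list of 18 other family genes and the 5 genes nearest in pattern were named. Any gene of lists of up to 13 genes could be named, and only some were, so a gene not named there can lie on either side of the limit where the text does not list those past it. Gbp8 and Gbp9 were named after their values were seen. The lists were other GBP and IRG genes, Mx genes, other large GTPases, the interferon gamma and type I interferon pathways, autophagy, inflammasome and prenylation genes, delivered factors (3 of 6 higher by over 1 in GMTMS-iCMs and 4 of 6 in the GMTMM-labelled library), and markers of macrophages, T and NK cells, endothelium, fibroblasts, cardiomyocytes and smooth muscle (2 of 5 of the latter were higher by over 1 in GMTMS-iCMs and 3 of 5 in the GMTMM-labelled library). Over all genes tested, the shares higher by over 1 were 12.1% in GMTMS-iCMs and 8.31% in the GMTMM-labelled library. Shared sequence was measured on GENCODE M21 exons and transcripts. Protein sequences were not used here. The values of 1 gene of the interferon gamma pathway list are not reported here. The scale was tested on simulated counts drawn from a common mean, with a small set of genes changed. Far more genes differ between the real libraries, so this test does not show how the scale performs on them. Alternatives used edgeR 4.0.16 for TMM and DESeq2 1.42.0 for size factors, under R 4.3.3. All else ran in Python 3.11.15 with pandas 2.3.3 for tables, numpy 2.4.6 for arrays, SciPy 1.17.1 for intervals and matplotlib 3.10.9 for plots.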

Additional observations from a re-analysis of the deposited data

How the results depend on the processing

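No paired analysis was possible because there is 1 library for every condition. Under each alternative scaling tried, all 10 GTPases had lower values in MICFs than in either transduced library, with Gbp7 in the GMTMM-labelled library the lowest, at 0.73 on log2 CPM by library totals. The number higher by over 1 was 10 in GMTMS-iCMs under each scaling, and 9 or 10 in the GMTMM-labelled library. It was 8 and 7 for a difference over 2. The median difference of GMTMS-iCMs from MICFs, 2.54, was 2.92 with DESeq2's size factors, 2.80 where quantile normalization was left out and 2.83 with TMM, and that of the GMTMM-labelled library, 2.37, was 2.68, 2.54 and 2.64 in the same order. Between the transduced libraries, the count of 1 higher gene was 0 with log2 taken before quantile normalization, by library totals and for a difference over 2. The count of 0 lower genes was 1 (Gbp2) by library totals and with quantile normalization over the 2 libraries compared, an alternative chosen after seeing the data. The median there, 0.22, was 0.0845 by library totals, a scaling that put the median of all genes at -0.37, -0.22 and -0.09 in the 3 comparisons. Iigp1 between the transduced libraries was the single value with another sign, -0.04 by library totals. The share of all genes that exceeded MICFs by over 1 in GMTMS-iCMs was 3.13% without the filter on low values (2.72% lower), and lower shares were 16.7% with DESeq2's size factors and 17.4% with TMM. In the GMTMM-labelled library it was 2.12% (1.30% lower) without the filter, and 12.8% (10.6% lower) with a pseudocount of 0.1, 13.4% (9.42%) with DESeq2's size factors and 12.8% (9.10%) with TMM. Between the transduced libraries it was 2.33% (2.84% lower) without the filter and 14.1% with a pseudocount of 0.1. The causes were not tested. With 1 library per condition, depth limits only the counting intervals, and the spread between cultures is unknown.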
